A study of Mus musculus with 12 samples.

Results

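Open chromatin was compared between 2 mouse leukaemias that carry different fusions of the same gene, MLL-AF9 (MA9) and MLL-ENL (ME). The comparison used 6 of the 12 ATAC-seq libraries of the series, 3 with each fusion, chosen by their sample titles. Their peaks on chromosomes 1 to 19 were merged wherever they overlapped by at least 1 bp. A merged region was called specific to one leukaemia when all 3 of its libraries and no library of the other had a peak there. The same was done at equal length, because the MA9 lists were longer: each library gave only its peaks of highest signal, as many as the shortest list of the series held. MA9 cells had the genotype CD45.2(+) MLL-AF9 and ME cells the genotype CD45.2(+) MLL-ENL. Both were CD45.2+ cells sorted from bone marrow of C57BL/6 mice, with 150000 cells per sample and no treatment. The remaining libraries, used only for orientation, were 3 with the genotype CD45.2(+) BRD9-NUTM1 (BN1) and 3 of cells sorted the same way with no fusion in their genotype, CD45.2(+) (Control). The labels did not give how a fusion was introduced or whether replicates came from separate animals. So any p-value below rests on the spread among these samples alone, which may be technical.

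MLL (KMT2A) is a histone methyltransferase that keeps genes such as the Hoxa cluster active in blood stem and progenitor cells. In MLL-rearranged leukaemia its amino-terminal part is joined to a partner. AF9 (MLLT3) and ENL (MLLT1) are related proteins that read acylated histones and bring in the super elongation complex and the methyltransferase DOT1L. Both fusions are known for sustained transcription of Hoxa9 and Meis1 in myeloid progenitors. ATAC-seq marks DNA that a transposase can enter, mostly promoters and enhancers.

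The promoters under the regions of interest differ in make-up, so examples come first. For each leukaemia the 4 strongest regions specific at equal list length that held an annotated start of their own protein-coding gene were taken. Only starts in the set of RefSeq promoter windows used below counted. That set was incomplete: of 365 annotated genes in the gene lists used below, 284 had a window. Each sequence is the 250 bases before a RefSeq transcription start (GRCm38.p6), written 5′ to 3′ on the gene's strand. Capitals mark a CCAAT box (CCAAT or its reverse complement ATTGG), the letters bound by NF-Y. The MA9-specific regions gave Cdk6 (chr5:3343643-3343892, plus strand), Gstp3 (chr19:4059448-4059697, minus strand), Uhrf1 (chr17:56303087-56303336, plus strand) and Hipk3 (chr2:104494490-104494739, minus strand). Their products are a cell cycle kinase, a glutathione transferase, a reader of hemimethylated DNA and a nuclear kinase.
Cdk6: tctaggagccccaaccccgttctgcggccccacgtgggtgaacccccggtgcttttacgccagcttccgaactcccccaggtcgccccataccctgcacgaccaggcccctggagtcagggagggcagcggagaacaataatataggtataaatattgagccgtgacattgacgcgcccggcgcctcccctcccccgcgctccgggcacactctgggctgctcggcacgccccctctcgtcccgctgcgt
Gstp3: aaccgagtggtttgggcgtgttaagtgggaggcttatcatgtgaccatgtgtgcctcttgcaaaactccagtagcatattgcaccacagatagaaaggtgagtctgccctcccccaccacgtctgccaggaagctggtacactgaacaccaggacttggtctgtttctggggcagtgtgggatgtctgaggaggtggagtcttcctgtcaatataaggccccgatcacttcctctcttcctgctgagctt
Uhrf1: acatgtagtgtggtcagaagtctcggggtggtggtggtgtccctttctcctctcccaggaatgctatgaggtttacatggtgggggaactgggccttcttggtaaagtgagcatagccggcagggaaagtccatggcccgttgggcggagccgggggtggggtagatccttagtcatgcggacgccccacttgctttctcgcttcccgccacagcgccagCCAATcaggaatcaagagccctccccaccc
Hipk3: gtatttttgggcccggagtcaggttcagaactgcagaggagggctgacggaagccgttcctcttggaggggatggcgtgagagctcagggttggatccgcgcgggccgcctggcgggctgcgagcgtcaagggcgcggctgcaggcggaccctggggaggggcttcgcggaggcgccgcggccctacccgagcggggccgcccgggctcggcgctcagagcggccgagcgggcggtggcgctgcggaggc
The ME-specific regions gave Tnrc18 (chr5:142817663-142817912, minus strand), Gtdc1 (chr2:44927237-44927486, minus strand), Gm3667 (chr14:6889932-6890181, minus strand) and Uba3 (chr6:97205648-97205897, minus strand). Uba3 encodes a subunit of the enzyme that activates NEDD8. Gm3667 is a predicted gene whose calls are uncertain, for a reason given below.
Tnrc18: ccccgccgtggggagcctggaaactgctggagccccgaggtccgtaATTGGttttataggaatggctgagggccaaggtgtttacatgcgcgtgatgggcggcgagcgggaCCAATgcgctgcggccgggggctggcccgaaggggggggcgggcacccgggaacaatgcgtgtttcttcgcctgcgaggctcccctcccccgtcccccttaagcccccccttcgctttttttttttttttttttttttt
Gtdc1: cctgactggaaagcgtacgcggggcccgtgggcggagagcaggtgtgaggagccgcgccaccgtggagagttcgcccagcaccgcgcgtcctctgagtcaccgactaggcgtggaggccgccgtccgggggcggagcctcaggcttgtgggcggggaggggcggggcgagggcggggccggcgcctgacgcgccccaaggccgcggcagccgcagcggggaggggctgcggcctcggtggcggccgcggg
Gm3667: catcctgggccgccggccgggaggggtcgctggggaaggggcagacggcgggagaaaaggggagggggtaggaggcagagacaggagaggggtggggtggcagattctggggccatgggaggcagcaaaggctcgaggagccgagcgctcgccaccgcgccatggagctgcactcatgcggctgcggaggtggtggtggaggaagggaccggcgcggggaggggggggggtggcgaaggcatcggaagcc
Uba3: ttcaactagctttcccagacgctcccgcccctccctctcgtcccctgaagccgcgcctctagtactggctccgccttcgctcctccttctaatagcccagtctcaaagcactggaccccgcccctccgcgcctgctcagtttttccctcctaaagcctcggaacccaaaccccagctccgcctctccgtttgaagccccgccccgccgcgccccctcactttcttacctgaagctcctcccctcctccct
A pair of myeloid genes whose promoter regions were called in all 6 libraries but differed in rank follow. Hoxa9 (chr6:52227371-52227620, minus strand) encodes a homeodomain factor of progenitors, and Mpo (chr11:87793534-87793783, plus strand) encodes myeloperoxidase of primary granules.
Hoxa9: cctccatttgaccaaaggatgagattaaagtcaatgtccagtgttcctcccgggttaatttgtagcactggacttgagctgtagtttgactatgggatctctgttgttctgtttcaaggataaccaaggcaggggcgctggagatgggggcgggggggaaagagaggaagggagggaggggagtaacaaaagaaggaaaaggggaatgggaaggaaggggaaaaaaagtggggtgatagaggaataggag
Mpo: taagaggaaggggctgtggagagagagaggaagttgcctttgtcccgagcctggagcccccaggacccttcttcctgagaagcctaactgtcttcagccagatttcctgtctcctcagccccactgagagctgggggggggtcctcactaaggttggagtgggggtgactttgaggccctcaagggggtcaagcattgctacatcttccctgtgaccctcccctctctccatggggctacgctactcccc
Of these 10 windows, only those of Uhrf1, with 1, and Tnrc18, with 2, held a CCAAT box. The shares over all promoters of each class are given further on.

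MA9 lists held 33588, 31968 and 32288 peaks, against 9663, 9615 and 8546 in ME. Every MA9 list was longer, and the means were 32615 ± 858 in MA9 and 9275 ± 632 in ME (SD, n = 3 each). The two-sided p by exact permutation of the 6 libraries was 0.1, and none of the 20 possible splits can give a smaller one. Depth is unknown, since the lists give no read numbers. Absence of a call is no evidence of closed chromatin. At the deposited length, median peak width was 341, 321 and 324 bp in MA9 and 325, 330.0 and 335 bp in ME, and the groups overlapped (exact permutation p = 0.9).

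At equal length the MA9 peaks were wider. There the median width was 1172, 1075 and 1100 bp in MA9, against 591, 595 and 576 bp in ME. The groups did not overlap, with a difference in mean of 528 bp (exact permutation p = 0.1). These peaks covered 3.6 Mb in MA9 and 1.99 Mb in ME on average. The limit fell at different depths of the lists: the peaks kept were 8.96, 9.42 and 9.33% of the MA9 lists and 31.2, 31.3 and 35.2% of the ME lists. The weakest peak inside it had a signal of 2433, 2246 and 2305 in MA9 and 767, 758 and 687 in ME. The next peak outside had 2433, 2245 and 2303 in MA9 and 767, 758 and 687 in ME. Signal is the authors' value per peak and is not on a common scale between libraries, so only its rank within a list was used. It was taken to be a significance summed over the peak, which grows with width, and the part of width in results by rank was not tested.

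Gene ends held a smaller share of the MA9 peaks at the deposited length. Peaks whose distance to a protein-coding gene's nearer end was at most 1 kb were 30.6, 31.8 and 31.6% in MA9, against 59.2, 58.9 and 61.3% in ME. At equal length the shares were 74.1, 74.7 and 74.2% in MA9, against 75.4, 75 and 75% in ME. The groups did not overlap at either length (exact permutation p = 0.1 each), but the mean difference shrank to -0.819 percentage points at equal length. Library values of both lengths are plotted together.

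**Figure D1:**
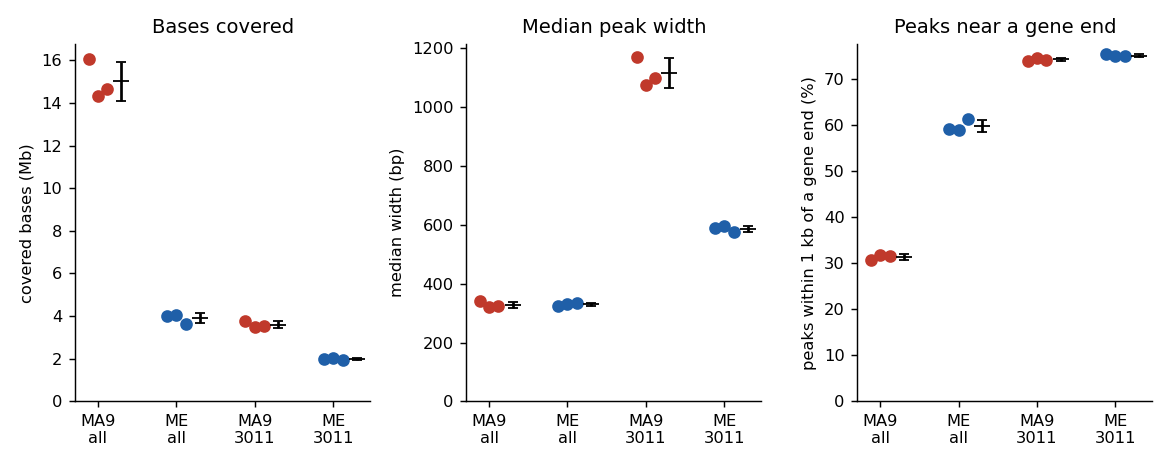
Covered bases (Mb), median peak width (bp) and the share of peaks within 1 kb of a gene end (%) in each MA9 and ME library, for the whole lists (all) and for lists of equal length (marked by their number of peaks). Points are libraries and bars are mean ± SD (n = 3); at equal length MA9 widths lie between 1075 and 1172 bp and ME widths between 576 and 595 bp, while gene-end shares lie within 74.1 to 75.4%.

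By the Jaccard index, libraries of one leukaemia resembled each other more than the other leukaemia, but not by the share of the shorter list. The mean Jaccard index, the bases shared by a pair of libraries over the bases either covers, was 79.2% within MA9, 82.6% within ME and 25.5% between them. At equal length it was 80.0% within MA9, 84.1% within ME and 45.1% between them (exact permutation p = 0.1 at both lengths). The ME lists were largely nested in the MA9 lists: a mean of 98.5% of the shorter list's bases lay in the longer list between leukaemias, against 92.0% within MA9 and 93.9% within ME.

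Marker genes were checked against the labelled cells. Spi1 and Cebpa, which encode the myeloid factors PU.1 and C/EBPα, and Mpo had a gene-end region in all 6 libraries. Ptprc, which encodes CD45, Kit, Itgam, Csf1r and Elane had one in all 3 MA9 libraries and in no ME library. An inner Ptprc region was called in all 6. No gene-end region of Pax5, Cd3e, Cd4, Hba-a1 or Epcam was called in any of the 6 libraries, while Klf1, which encodes an erythroid factor, had one in all 6. Over the 20 genes listed for B cells, 7 to 8 had any region in MA9 libraries and 2 in each ME library. Over the 16 genes listed for T cells, 7 had one in each MA9 library and 2 in each ME library. Shortened to 8546 peaks, the length of the shortest of the 6 lists, MA9 libraries had 1 to 2 genes of either list and ME libraries 2. The part of other cells in the results below was not tested.

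The merged lists gave 36244 regions. MA9-specific regions numbered 18543 (51.2% of all), ME-specific regions 48 (0.132%), and 7530 were called in all 6 libraries. MA9-specific regions were narrow, with a median width of 329 bp, and 20.6% lay at a gene end, against 64.0% of the regions called in all 6. They were also weak within the MA9 lists. Regions called in all 3 MA9 libraries were put in order of their mean signal percentile and split into deciles. In the weakest decile 99.8% were MA9-specific, in the sixth 83.5%, in the seventh 54.4%, in the eighth 27.1%, in the ninth 7.75% and in the strongest 0.897%.

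**Figure D2:**
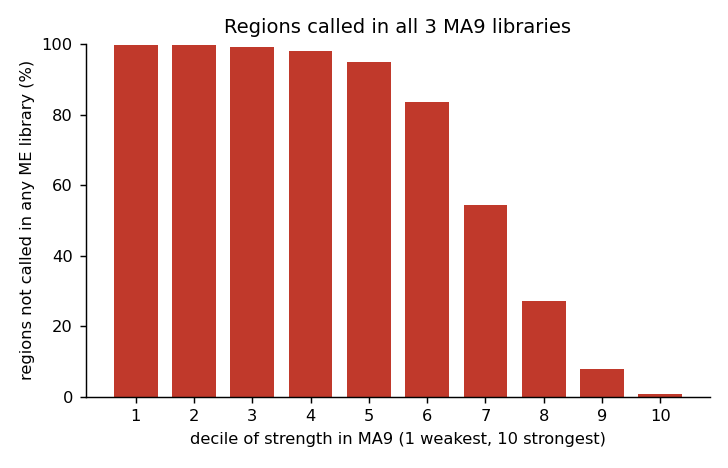
Share of the regions called in all 3 MA9 libraries that no ME library called (%), by decile of mean signal percentile in MA9. The bars lie at 99.8% in the weakest decile and 0.897% in the strongest.

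In the lists of equal length the split was nearly even. Of 3852 regions, 354 were MA9-specific (9.19%), 309 were ME-specific (8.02%) and 2189 were called in all 6. Most of these had a call on both sides and differed in rank. Of the 354 MA9-specific regions, 307 (86.7%) were called in all 3 whole ME lists, and 302 of the 309 ME-specific regions (97.7%) in all 3 whole MA9 lists. The MA9-specific regions had a median width of 1209.5 bp and 52.3% lay at gene ends. The ME-specific regions had a median width of 408 bp and 65.4% at gene ends, and shared regions 1228 bp and 79.7%. Ranked by the deposited −log10 p in place of signal, the numbers were 128 MA9-specific and 97 ME-specific regions.

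The strongest MA9-specific region at equal length overlapped an end of Tsc22d2, a member of the TSC22 family of transcriptional regulators (chr3:58414161-58417429). It ranked 55, 85 and 74 by signal in the MA9 lists, against 6439, 7068 and 8152 in the ME lists. Next came a region over an annotated start of Cdk6, whose kinase drives entry into the cell cycle and is a known target of MLL fusions (chr5:3341093-3344845). Its ranks were 223, 149 and 162 in MA9, against 3709, 6136 and 3210 in ME. The region at Hsp90ab1, which encodes a cytosolic chaperone, ranked 394, 327 and 533 in MA9, against 4155, 3988 and 3978 in ME. Near Lcp1, which encodes the actin-bundling protein L-plastin of leucocytes, a region ranked 428, 536 and 464 in MA9, against 5988, 6375 and 6417 in ME. Uhrf1 gave 777, 527 and 723 in MA9, against 3879, 3731 and 3457 in ME. Each of these was among the top 777 peaks in every MA9 library and below the equal-length limit in every ME library. The other 10 of the 15 strongest lay nearest Gstp3, Arl5c, Nsd1, Wnt11, Tac4, Ltbp2, Hipk3, Agbl5, Zswim4 and Nfic. Of the 15, 14 were called in all 3 Control libraries, the exception being Ltbp2. So were 324 of the 354 MA9-specific regions, and each Control library called 97.2 to 97.4% of all equal-length regions.

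On the ME side the strongest region lay 0.646 kb from LOC108167320, an uncharacterised gene. It ranked 4340, 4149 and 4374 in MA9, against 368, 366 and 292 in ME. A region near Hrh2, which encodes a histamine receptor, ranked 3718, 3164 and 3262 in MA9, against 835, 769 and 617 in ME. A narrow region inside Tnrc18, the one whose start is printed above, ranked 4756, 4956 and 4418 in MA9, against 965, 1058 and 1003 in ME. The widest gap was at Pdpn, which encodes the membrane glycoprotein podoplanin (chr4:143241600-143242420): 28833, 29921 and 21927 in MA9, against 1516, 977 and 870 in ME. All 3 MA9 ranks lay far below the ME ranks. The rest of the 15 strongest lay nearest Slc8a1, Wdr92, Them4, Dnah7b, Kif21a, Ccnyl1, Gm41099, Vmn2r102, Gtdc1, Bysl and Gm3667. Calls at predicted genes such as Gm41099 and Gm3667 are uncertain, because the handling of reads with several matches is not known.

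A small number of strong regions had no call at all on the other side. Among the 354 MA9-specific regions 25 were in none of the whole ME lists. The strongest lay 28.1 kb from Ltbp2, which encodes a binding protein of latent TGF-β (chr12:84846523-84848481), and ranked 594, 658 and 648 in MA9. It had no call in Control or BN1 libraries either. H3f3b, which encodes histone H3.3, held a region over its gene end ranked 854, 1318 and 1108. A region 24.1 kb from Runx1, a master factor of blood formation, ranked 2581, 2488 and 2510, and one over an end of Lyl1, a helix-loop-helix factor of progenitors, ranked 2873, 1487 and 2580. Regions near Ffar2, a receptor for short-chain fatty acids, and at Bpi, which encodes a bactericidal granule protein, were of the same kind. The other 19 lay nearest Pura, Gm20346, Gm46977, Prim2, Wwp2, Arhgap35, Gm13570, Ecpas, Ppara, Fry, Rcn3, Ampd3, Bex6, Plcl2, Msl3l2, Zc3h12a, Spatc1, Tctn1 and Chsy1. Of the 25, 16 were called in all 3 Control libraries, 8 in none of them and 5 in any BN1 library. Of all 354 MA9-specific regions, 324 were called in all 3 Control libraries. Each BN1 library called 18.4 to 38.7% of the 354, against 60.4 to 79.8% of all equal-length regions.

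In the reverse direction 7 of the 309 ME-specific regions were in none of the whole MA9 lists. They lay nearest Kif21a, Gm3667, Gm7361, with 2, Gm10668, Gm51600 and Sulf1, and 6 of the 7 had no call in Control. The Kif21a region (chr15:90896396-90897045) ranked 1321, 1150 and 1257 in ME and was called in 2 BN1 libraries. All 7 were called in at least 1 BN1 library. Each BN1 library called 63.4 to 84.8% of the 309 ME-specific regions and 60.4 to 79.8% of all equal-length regions. Of the 309, 294 were called in all 3 Control libraries.

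The 48 ME-specific regions of the whole lists had a median width of 762.5 bp, and 7 of them (14.6%) lay within 1 kb of a gene end, against 29.1% of all regions. Joined across gaps of up to 100 kb they formed 36 clusters, of which 5 with at least 2 regions held 17, so that most regions stood alone. The largest, of 7 regions, lay beside Speer4f2 (chr5:17370918-17382984). The others were at Gm7361 and Gm8267, with 3 each, and at the pairs Gm3642 and Gm3667, and Gm51598 and Gm51600, with 2 each. Speer and several of these predicted genes belong to families of closely related copies. The handling of reads with several matches is not given in the sources used here, so these calls are uncertain. Of the 48, 34, 13 and 10 were called in BN1 replicates 1 to 3, where 7.65 to 10.6% of all regions were called, so the number rests largely on BN1 replicate 1. In Control, 2 to 3 of the 48 were called per library, against 52.2 to 55.2% of all regions.

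Both classes were then looked up in the libraries outside the comparison. Among the strongest peaks of BN1 libraries, at the same length, lay 17.5 to 20.9% of the equal-length MA9-specific regions and 61.2 to 68.0% of the ME-specific ones, against 60.4 to 66.1% of all regions. In Control the figures were 37.3 to 40.1% of MA9-specific regions and 26.9 to 29.8% of ME-specific regions, against 56.5 to 58.9% of all regions. In BN1 the MA9-specific share lay below that of all regions and the ME-specific share near it. In Control both lay below it. In the whole Control lists the order of the classes was the other way. There 92.4 to 92.9% of MA9-specific and 95.5 to 95.8% of ME-specific regions were called, against 97.2 to 97.4% of all regions. Neither contrast was used to choose the regions; no test was run across groups, because the regions share these libraries.

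**Figure D3:**
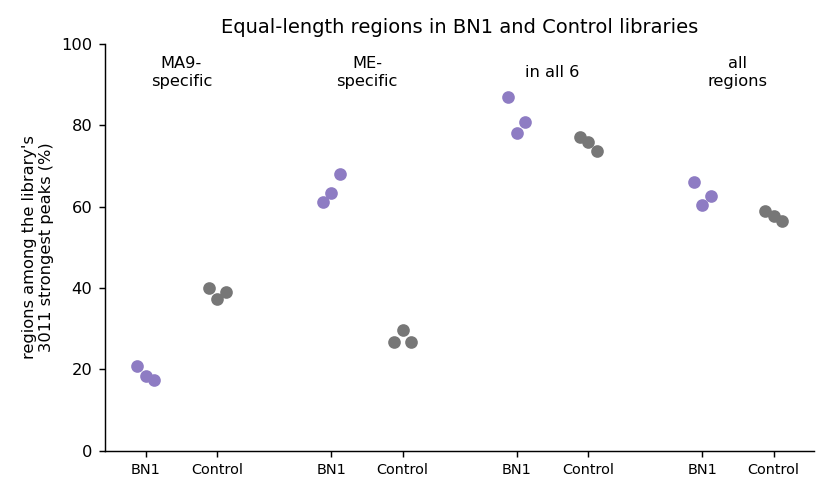
Share of equal-length regions (%) that lie among the strongest peaks, at the same length, of each BN1 and Control library, for MA9-specific, ME-specific, shared and all regions. Points are libraries; the BN1 points lie between 17.5 and 20.9% for MA9-specific and between 61.2 and 68.0% for ME-specific regions, with Control at 37.3 to 40.1% and 26.9 to 29.8%.

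The regions called in all 6 libraries allowed a comparison free of missing calls. Each library's regions were given a percentile by peak signal, with 100 the strongest. Percentiles correlated across regions with r of at least 0.966 within a leukaemia and 0.815 to 0.843 between them, a description over regions that share libraries. All 3 MA9 percentiles lay above all 3 ME percentiles in 1952 regions and below them in 2988. With a difference of at least 20 points required as well, 738 regions (9.8%) ranked higher in MA9 and 481 (6.39%) lower. Higher regions had a median width of 1118 bp and lower ones 528 bp. Of the 492 regions up to 400 bp wide, 0 ranked higher and 113 lower, and of the 581 over 1600 bp, 99 ranked higher and 2 lower. By −log10 p in place of signal, 290 ranked higher and 314 lower, sharing 143 and 190 regions with the calls by signal. The sign of the difference was the same by both measures in 581 of the 738 and 460 of the 481.

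**Figure D4:**
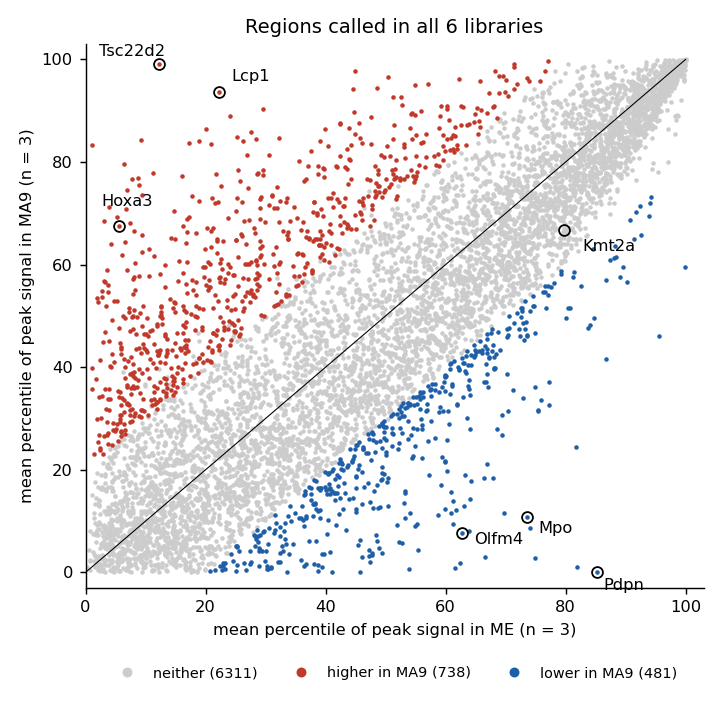
Mean percentile of peak signal in MA9 (vertical) against ME (horizontal) for the regions called in all 6 libraries (n = 3 libraries per axis); red points rank at least 20 points higher in MA9 without overlap of the groups, blue points lower, grey neither. The 738 red and 481 blue points lie on both sides of the line of equality, with Tsc22d2 and Pdpn at the far corners.

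The Tsc22d2 region had percentiles of 99.3, 98.9 and 99 in MA9, against 20.1, 13.7 and 3.12 in ME, a difference in mean of 86.8 points by signal and 44.3 by −log10 p. Orai2, which encodes a store-operated calcium channel, had a promoter region at 84.9, 86.4 and 78.5 in MA9, against 1.49, 0.438 and 1.5 in ME. Lcp1 stood at 94.3, 92.9 and 93.9 in MA9, against 25.3, 20.9 and 20.5 in ME. None of the 3 overlapped between leukaemias. Fadd, the adaptor of death receptors, differed by 73.2 points, Rnf213, a large ubiquitin ligase, by 75.1, and Cd37, a tetraspanin of leucocytes, by 68.1. Slc36a3, an amino acid transporter, Srek1, a splicing factor, Pxn, the focal adhesion protein paxillin, and BC035044 differed by 66.6 to 68.8 points. Ranked by −log10 p, the differences of these 10 regions were smaller, from 8.22 points for Pxn to 60.1 for Slc36a3. By signal divided by peak width, a measure added after the data were seen, 4 of the 10 turned sign: Orai2 to -14.5, Cd37 to -4.53, Pxn to -15.4 and BC035044 to -14.4. Each of the 10 was called in all 3 Control libraries, as were 94.8% of the common regions that ranked neither higher nor lower.

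The regions that ranked furthest below their ME position held that place by signal and by −log10 p. Pdpn had percentiles of 0.0133, 0.0133 and 0.0531 in MA9, against 80.1, 87.1 and 88.5 in ME. Mpo differed by -62.8 points at the promoter printed above (chr11:87793309-87794213), with 15.3, 7.48 and 9.44 in MA9, against 71.0, 74.3 and 75.4 in ME. A further Mpo region 3.09 kb from the gene had 17.3, 22.6 and 6.79 in MA9, against 40.6, 43.9 and 41.1 in ME. Both Mpo regions lacked a call in Control and were called in 1 BN1 library. Cdh5, which encodes the endothelial cadherin, had a region 15.2 kb away at 1.18, 1.09 and 3.03 in MA9, against 59.1, 59.2 and 69.1 in ME. It was called in all 3 BN1 libraries and in no Control library. Gm14410, Gm14326 and Zfp972, which lie within 1 Mb of each other on chromosome 2, differed by -72.0, -63.5 and -60.8 points. As above, calls at the predicted genes Gm14410 and Gm14326 are uncertain. Rnf169, Gm41099, Slc22a22 and Vmn2r102 completed the 10, and by −log10 p the 10 differences lay between -65.2 and -42.6 points. Divided by width, they lay between -57.7 points for Pdpn and 5.66 for Zfp972, the one that turned.

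**Figure D5:**
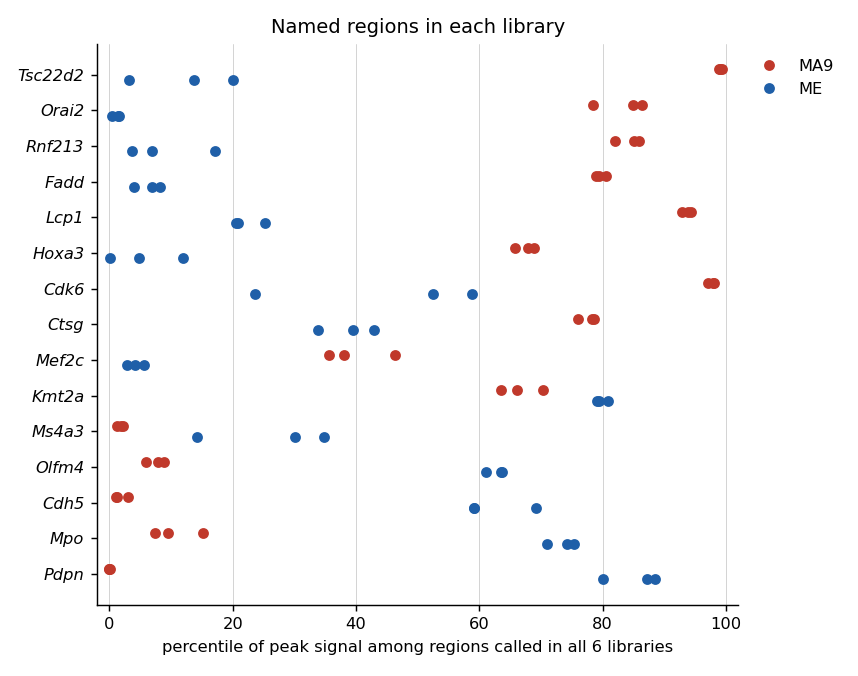
Percentile of peak signal in each library for 15 named regions called in all 6 libraries; the horizontal axis runs from the weakest (0) to the strongest (100) of these regions, red points are the 3 MA9 libraries and blue points the 3 ME libraries. The 9 upper regions lie to the right in MA9; Kmt2a and the regions under it lie to the left.

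The Hoxa cluster, the best known target of MLL fusions, had calls in both leukaemias. Its peak counts differed in about the proportion of the whole lists. Across the cluster on chromosome 6 there were 18, 20 and 20 peaks in MA9 and 7, 5 and 6 in ME, against 0 in each BN1 library and 2, 1 and 1 in Control. At equal length there were 5, 4 and 3 in MA9 and 0, 1 and 0 in ME. Of 7 Hoxa genes with a region, 6 had an MA9-specific one, against 67.2% of all genes with a region. The peaks formed 19 regions, of which 10 were MA9-specific (background 51.2%), 4 were called in all 6 and 0 were ME-specific. A wide region at Hoxa10 (chr6:52229577-52231186) was at percentiles 92.9, 85.2 and 92.0 of the MA9 lists and had no call in ME, BN1 or Control. The 4 common regions belonged to Hoxa3, Hoxa7 and, with 2, Hoxa9.

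At Hoxa3 the common region had percentiles of 65.8, 67.8 and 68.9 in MA9, against 4.85, 12 and 0.0398 in ME. The Hoxa9 promoter region had 89.0, 87.4 and 60.7 in MA9, against 39.1, 45.9 and 40.6 in ME. Its other region had 90.1, 89.2 and 87.0 in MA9, against 36.8, 61.3 and 44.7 in ME. All 3 ranked higher in MA9 without overlap. The Hoxa7 region differed by 17.8 points, with no overlap and short of the 20 required. By −log10 p, Hoxa3 differed by 22.0 points, the Hoxa9 regions by 18.2 and 14.4, and Hoxa7 by 1.74, so that only Hoxa3 kept a difference of 20 points. By signal divided by peak width, Hoxa3 differed by 7.22 points and the other Hoxa9 region by 1.76, while the Hoxa9 promoter region turned to -7.60 and Hoxa7 to -40.8.

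By signal, the promoter regions of the genes joined in the fusions differed less than the common Hoxa regions. The Kmt2a promoter stood at 63.5, 66.1 and 70.4 in MA9, against 79.1, 79.3 and 80.9 in ME, a difference of -13.1 points without overlap. The Mllt1 promoter, of the ENL gene, stood at 67.1, 68.4 and 66.5 in MA9, against 53.9, 70.1 and 57.8 in ME, and the groups overlapped. The one region of Mllt3, the AF9 gene, lay at its start and was called in 3 MA9 and 2 ME libraries. Neither promoter region met the rule for a call. By −log10 p Kmt2a differed by -2.60 points and Mllt1 by 7.46. By signal divided by peak width the differences were -19.5 and 28.4 points, larger than at Hoxa3 or Hoxa9. Both genes also had regions elsewhere that all 3 MA9 libraries and no ME library called, as did 67.2% of all genes with a region. Peaks at these loci cannot tell a normal gene from a fusion copy.

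Other targets and cofactors of MLL fusions had MA9-specific regions at nearly every gene, as did most genes of the whole lists. Genes were given regions by their nearest gene end. Among 12897 protein-coding genes with any region, 67.2% had an MA9-specific one and 0.295% an ME-specific one. Of 18 Hox cofactors and fusion targets with a region, 17 had an MA9-specific one, or 10 when regions went to the nearest transcription start. Their median number of regions was 7.5 per gene, against 2 over all genes. Several were strong in MA9: a region 0.433 kb from Meis1, the main Hox cofactor, was at percentiles 88.9, 87.5 and 85.9. Near Myb, a proliferation factor of progenitors, a region was at 89.0, 84.9 and 87.4. The Meis1 region was called in all 3 Control libraries and the Myb region in none.

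With every list cut to 8546 peaks, 970 regions (9.31%) were MA9-specific and 567 (5.44%) ME-specific. Of the cofactor list, 6 of 13 genes with a region then had an MA9-specific one (among them Cdk6, Lmo2, Meis1 and Myb), against 11.6% of all genes. Cdk6 and Myb also had an ME-specific region elsewhere, where 6.89% of all genes had one. At Cdk6, the region by the start had percentiles of 97.1, 98.1 and 97.9 in MA9, against 52.4, 23.6 and 58.8 in ME. This difference of 52.7 points was 3.09 by −log10 p and -1.92 by signal divided by width. A region 57.3 kb from Mef2c, a factor of MLL leukaemia stem cells, had 46.4, 35.6 and 38.0 in MA9, against 5.62, 2.79 and 4.16 in ME. By −log10 p its difference was 5.26 points. At equal length Mef2c had an ME-specific region elsewhere. Of the 5 cofactor genes with a region there, 1 (Cdk6) had an MA9-specific one and 1 (Mef2c) an ME-specific one. Over all genes the shares were 9.84% and 8.61%.

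The MLL complex and its elongation partners were mixed. Of 20 such genes 14 (70%) had an MA9-specific region, and 0 an ME-specific one. Over all genes with a region the shares were 67.2% and 0.295%, so the list lay near them. Over the 25 common regions of these genes the median difference was -1.25 points, against -1.70 over all common regions. Of the 25, 3 were higher in MA9 and 2 lower, against 9.8% and 6.39% of all common regions. Wdr5, which encodes a core subunit, had a promoter region at 64.8, 65.0 and 65.3 in MA9, against 40.7, 20.7 and 50.1 in ME. Regions near Ell and Aff1, genes of the super elongation complex, differed by 25.8 and 29.7 points. Ash2l, another core subunit, lay lower, at 21.5, 25.7 and 23.1 in MA9, against 49.5, 45.8 and 49.4 in ME. Ell2 differed by -20.7 points. For Aff1 and Ell2 the difference by −log10 p was 1.85 and 5.49 points, of opposite sign for Ell2. Divided by width, the signal differences of Ash2l and Ell2 turned to 15.3 and 7.15 points. At equal length Dot1l, which encodes the histone methyltransferase, and Men1, which encodes the MLL cofactor menin, had an ME-specific region, where 8.61% of all genes had one. Aff1 and Wdr5 had an MA9-specific region, where 9.84% of all genes had one.

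Genes of promyelocyte granules had regions that differed in both directions. In the whole lists 10 of 11 genes had an MA9-specific region, against 67.2% of all genes. Among them were Mpo and Elane, which encodes neutrophil elastase. The list's 8 common regions had a median difference of -11.2 points by signal and -13.3 by −log10 p, against -1.70 and 0.101 over all. Of the 8, 1 was higher in MA9 and 3 lower, against 9.8% and 6.39% of all common regions. The lower ones were the Mpo pair and Ms4a3, a gene of granulocyte-monocyte progenitors, whose region had 2.19, 1.24 and 1.97 in MA9, against 14.3, 30.1 and 34.8 in ME. The higher one lay near Ctsg, which encodes cathepsin G, with 78.5, 78.3 and 76.1 in MA9, against 42.8, 33.8 and 39.6 in ME; its difference was 4.87 points by −log10 p and -4.71 by signal divided by width. At 8546 peaks, 2 of 7 granule genes with a region (Hp and Srgn) had an MA9-specific one, against 11.6% of all genes. An ME-specific one was at 1 (Ms4a3), against 6.89%.

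In the whole lists more genes of mature myeloid cells had a region in MA9 than in ME libraries, and the same held for most gene lists, those of B and T cells included. MA9 libraries had a region at 19, 18 and 18 of 20 neutrophil maturation genes, and ME libraries at 7, 7 and 4. At 8546 peaks the counts were 3, 4 and 4 in MA9, against 6, 5 and 4 in ME. For monocyte and macrophage genes, of 16, they were 15, 15 and 16 in MA9, against 6, 6 and 5 in ME, and at 8546 peaks 7 in each MA9 library, against 6, 6 and 5. Among the neutrophil genes Olfm4, a protein of specific granules, had a common region 14.7 kb away at 6.02, 7.95 and 8.82 in MA9, against 63.6, 63.6 and 61.0 in ME, and -56.1 points by −log10 p. That region had no call in Control or BN1.

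At the gene level, 11.5% of the 6182 genes with a common region had one higher in MA9 and 7.33% one lower. Myeloid transcription factors had an MA9-specific region at 25 of 25 genes in the whole lists, against 67.2% of all genes. Their median number of regions was 6 per gene. Over 48 common regions the median difference was -0.347 points, against -1.70 over all common regions. Of the 48, 3 were higher in MA9 and 3 lower, against 9.8% and 6.39% of all common regions. Cebpb, the C/EBP factor of emergency granulopoiesis, held both kinds. Its regions at 19.5 and 22.4 kb differed by 43.2 and 35.9 points, and one at 57.1 kb by -24.8, with 0.146, 0.385 and 0.518 in MA9 and 22.1, 25.6 and 27.7 in ME. Klf4, a monocyte factor, was higher by 23.0 points at its promoter, while Cebpd and Jun were lower by differences of -22.3 and -24.7. By −log10 p the 2 higher Cebpb regions differed by 18.6 and 11.5 points, Klf4 by 8.86 and Cebpd by -13.4, all short of 20, while the lower Cebpb region and Jun kept -23.0 and -21.7. Divided by width, the nearest Cebpb region, Cebpd and Jun turned to -16.1, 11.0 and 8.58 points. At 8546 peaks Fosl2, Runx1 and Runx3 had MA9-specific regions and Cebpb and Cebpd ME-specific ones.

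Surface and adhesion genes gave different counts at each length. In the whole lists 13 of 13 had an MA9-specific region, against 67.2% of all genes, or 7 by the nearest transcription start. At 8546 peaks 5 of 10 did (Cd33, Cd44, Cd47, Itgam and Itgb2), against 11.6% of all genes. At equal length 0 of 6 did, against 9.84% of all genes. Those with a region had a median of 8 regions per gene, against 2 over all genes. The median difference over 14 common regions was 9.84 points by signal and 8.79 by −log10 p, against -1.70 and 0.101 over all common regions. Of the 14, 3 were higher in MA9 and 0 lower, against 9.8% and 6.39% of all common regions. At Ptprc the inner region had 42.6, 43.6 and 29.0 in MA9, against 16.5, 1.77 and 5.76 in ME. A pair of regions of Cd9, a tetraspanin, were higher by 37.7 and 36.3 points, though by −log10 p the first was -8.31, and by signal divided by width they were -8.14 and -31.6.

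Stem and progenitor genes had an MA9-specific region at 11 of 14 genes, neutrophil maturation genes at 14 of 19 and monocyte and macrophage genes at 13 of 16 in the whole lists. At 8546 peaks, 2 of 6 stem and progenitor genes with a region (Lyl1 and Zfp36l2) had an MA9-specific one, against 11.6% of all genes. An ME-specific one was at 2 (Cd34 and Lyl1), against 6.89%. Cytokine receptors counted 17 of 19, and Il17ra held a region higher in MA9, by 39.8 points, and one lower, by -24.1. Antigen presentation genes counted 12 of 13, with 0 specific to either side at 8546 peaks. Cell cycle genes counted 16 of 28 and housekeeping genes 7 of 18, both below the 67.2% of all genes. Over their 30 and 21 common regions the median differences were -0.0332 and -0.629 points, and 1 of these regions, near Rab7, met the rule. Interferon response genes counted 7 of 11 and dendritic cell genes 7 of 9. Of the smaller lists, NK cells counted 2 of 4, erythroid cells 4 of 8, T cells 5 of 7, B cells 6 of 8, megakaryocytes 4 of 4, mast cells, basophils and eosinophils 5 of 6, and genes silent in blood 2 of 3. In none of the 22 lists did a gene have an ME-specific region in the whole lists.

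Promoters under MA9-specific regions held fewer CCAAT boxes than those under ME-specific regions when peaks were ranked by signal. Windows of 300 bases, from 250 before to 50 after each RefSeq start, were searched on both strands, and 37.3% of all 31396 windows held CCAAT. At equal length, 78 of 256 windows (30.5%) in MA9-specific regions held one, against 108 of 211 (51.2%) in ME-specific regions, and 1141 of 2360 (48.3%) in shared regions did. For regions common to all 6 libraries the shares were 154 of 542 (28.4%) where MA9 ranked higher and 105 of 183 (57.4%) where it ranked lower. Among windows in regions up to 800 bp wide they were 29.6% and 57.5%, and in those over 800 and up to 1200 bp 28.2% and 52.9%. With signal divided by peak width as the ranking, they were 39.4% where MA9 ranked higher and 42.1% where it ranked lower. The letters of the NRF1 site (GCGC, any base, then TGCGC) were in 8.59% of MA9-specific and 22.7% of ME-specific windows and 15.7% of shared ones, against 4.68% of all. In common regions they were in 11.6% where MA9 ranked higher and 14.8% where it ranked lower, and at 8546 peaks in 8.40% of MA9-specific and 12.6% of ME-specific windows. GC content was 63.4% in MA9-specific and 64.5% in ME-specific windows.

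At equal length the order of both classes depended on the ranking. By −log10 p, 30 of 70 MA9-specific windows (42.9%) and 16 of 42 ME-specific windows (38.1%) held CCAAT there. NRF1 letters were in 24.3% of MA9-specific and 9.52% of ME-specific windows. CCAAT kept its order in common regions ranked by −log10 p. It was in 30.9% of 110 windows where MA9 ranked higher and 43.4% of 122 where it ranked lower. NRF1 letters were in 17.3 and 14.8% of these windows, the reverse of the order by signal. By library, the equal-length lists by signal held windows with CCAAT in 45.5, 46.0 and 46.4% in MA9, against 49.8, 50.6 and 50.3% in ME. These groups did not overlap, with a difference of -4.27 percentage points (exact permutation p = 0.1). BN1 libraries had 51.3 to 55.5% and Control libraries 50.1 to 50.5%. A match of letters does not show binding, and these motifs were 2 of 12 searched, all chosen with the data in view.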

How the data were processed

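ATAC-seq peak lists of 6 libraries were used, with 6 others for orientation. Per the submitters' processing notes the tools named were Genrich, with no version, deepTools 3.5.1, Picard 3.2.0 and Bowtie2 2.5.4, on mouse GRCm38 (mm10). Each list is the authors' own, per library. The deposited signal (never below 200.005, taken here to be a peak's summed significance) and the deposited −log10 p and −log10 q were used as ranks or thresholds within a library. The deposited score was not used. No file gives read counts, so depth and counting error are unknown.

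Peaks were merged, ranked and tested with Python 3.11.15, numpy 2.4.6, pandas 2.3.3 and scipy 1.17.1, and merging and calls were tested on simulated lists. Regions went to the nearest end of 20665 protein-coding genes of RefSeq GRCm38.p6. Named were the 15 strongest specific regions per side, the 10 largest rank differences per direction, list genes with a call, and the Hoxa, Kmt2a, Mllt1 and Mllt3 loci. Members, the 22 gene lists and tests were chosen with earlier results of these data known; Azu1 and Ighm were not among the annotated genes. Motifs at peak summits needed a genome and were not run; promoter windows were used instead. Some list genes are not reported here by name.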

Additional observations from a re-analysis of the deposited data

Results flagged for a closer look

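Peaks on unplaced sequences were left out of all comparisons above. There were 46, 45 and 46 such peaks in MA9 replicates 1 to 3 and 5 in each ME library, against 1, 3 and 2 in BN1 and 42, 42 and 44 in Control. They were singled out because each MA9 value lay above every Control value, in data outside the main measurement. With these sequences included, the whole lists gave 18575 MA9-specific and 49 ME-specific regions.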

How the results depend on the processing

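Counts followed the length and threshold of the lists. In place of 18543, the MA9-specific regions numbered 354 at equal length, 663 at 6000 peaks, 970 at 8546 peaks and 8205 with a −log10 q of at least 5. In place of 48, the ME-specific regions numbered 309, 457, 567 and 1 under the same settings, 402 with 200 bp summit windows and 73 with a call in 2 of 3 libraries. By −log10 p, the equal-length lists gave 128 and 97. Rank calls were 290 higher and 314 lower by −log10 p, and 1438 and 1439 by signal divided by peak width, a setting chosen after seeing the data that shared 194 and 100 regions with the calls by signal. Genes with an MA9-specific region numbered 345 at equal length and 899 at 8546, against 8663; for the lists, in the same order, Hoxa cluster 1 and 1, Hox cofactors 1 and 6, granules 1 and 2, myeloid factors 2 and 3, neutrophil maturation 0 and 2, and surface genes 0 and 5. By the nearest transcription start, also chosen later, cofactors numbered 10 and surface genes 7.

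Directions that turned were the similarity difference (-5.52 points as a share of the shorter list), the deposited width difference (2.5, 1.0 and 1.17 bp without MA9 replicate 2, MA9 replicate 3 and ME replicate 3) and the CCAAT difference (4.76 points by −log10 p, with shares of 42.9 and 38.1%, against -20.7). Their causes were not tested. Of 165 recomputed values 5 turned and 34, all counts or shares, moved (counts by over 1.5 times). The other 126 kept their sign or, for counts, stayed within 1.5 times; among them, the gene-end difference at equal length was -1.45 points within 2.5 kb, against -0.819.

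Leaving out 1 library gave 18593 to 20266 and 48 to 63 specific regions (MA9 and ME) at the deposited length and 375 to 411 and 335 to 352 at equal length, 733 to 774 higher and 479 to 522 lower ranks, differences of 22853 to 23663 in peaks, 10.6 to 11.5 Mb in covered bases, -7.5 to 2.5 bp in width and -28.9 to -27.7 points in gene-end share at the deposited length, 1.52 to 1.67 Mb, 500.2 to 549 bp and -1.0 to -0.681 points at equal length, and similarity differences of 54.1 to 56.8 points and 35.5 to 38.9 points. Deviations of same-numbered libraries correlated at 0.0203, 0.00523 and -0.0199, and those of differently numbered ones at -0.0337 to 0.0281. These values show no shared deviation by replicate number, but they cannot tell whether the samples were paired. With a replicate block the smallest exact permutation p is 0.25. The library differences reached it, except the deposited width difference (exact p = 1). Depth could not be set as a limit on any value.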
